A study of Apocynum venetum with 18 samples.

Results

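The data described here are 6 of the 18 leaf RNA-seq libraries of a salt time course in Apocynum venetum, a perennial shrub of saline soils grown for bast fibre and leaf tea. They are the 3 libraries sampled at 12 h (replicates 1, 2 and 3) and the 3 sampled at 24 h (replicates 1, 2 and 3), picked by their time labels. All 6 are leaf tissue of wild seedlings labelled as treated with NaCl at 300 mmol/L in the nutrient medium. The labels also write the plant as wild P. apocinae, and they name no genotype or age. Every other library of the course, 0 h included, carries the same salt label, and no unsalted library stands beside either time. The comparison asks what differed in leaf RNA between 12 h and 24 h in salt. The 12 h between the samplings also shift the hour of day if the stated hours were kept, so time in salt and hour of day cannot be told apart. Nothing ties a library to its own plant, so a p-value here measures the spread between libraries, which may be technical.

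Salt reaches a leaf first as a shortage of water and later as sodium and chloride carried in with the transpiration stream. Plants of saline ground are known to close stomata and make protective solutes early, and to move ions into vacuoles and adjust growth and photosynthesis over the following hours and days. Which transcripts carry such responses could not be read from these data, because the features are assembled transcripts known by ID alone. The deposited annotation columns were not used as names, so neither leaf marker genes nor pathway lists were checked. Features are described by direction, size, level, length and course. In bulk leaf RNA, fewer cells of a type and less RNA per cell cannot be told apart.

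The 6 libraries held 20760434 to 23297547 estimated counts each, against 17933939 to 24731213 over the series, and counts were given for 53545 features with a median length of 759 nucleotides. Across features, the Spearman correlation of log2 CPM (CPM, each feature's counts relative to the library's total, with totals scaled between libraries by TMM) averaged 0.930 among the 12 h libraries and 0.916 among the 24 h libraries, and 0.882 between the times. The 12 h libraries correlated at 0.907 with 6 h and at 0.855 with 48 h, while the 24 h libraries correlated at 0.834 with 6 h and at 0.906 with 48 h. These correlations describe the libraries, which share the same features and depth range, and were not tested. On the first principal component, which held 35.7% of the variance, the 12 h libraries lay at 7.1, 24.6 and -6.1 and the 24 h libraries at 152.6, 188.2 and 101.8.

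The library 24 h replicate 3 stood nearest to 12 h. Its mean correlation with the 12 h libraries was 0.900, against 0.874 and 0.871 for 24 h replicates 1 and 2, and 0.912 with the other 24 h libraries. Its TMM factor was 1.04, inside the 12 h range of 1.01 to 1.04, while those of 24 h replicates 1 and 2 were 0.87 and 0.79. It also had 31399 features at 1 CPM or more, before TMM scaling, where 24 h replicates 1 and 2 had 28341 and 26783 and the 12 h libraries had 30461 to 30624. The number of such features was therefore not separable between the times, at 30558 ± 86.0 (SD, n = 3) at 12 h and 28841 ± 2348 (SD, n = 3) at 24 h, by an exact permutation test (two-sided p = 0.4). At 10 CPM or more the times did lie apart, with 13913, 14053 and 14157 features at 12 h and 12442, 11975 and 13459 at 24 h (exact permutation test, two-sided p = 0.1). The share of counts in the most abundant features depended likewise on how many were taken. The 100 most abundant of each library took 14.6%, 14.7% and 15.4% of counts at 12 h and 16.8%, 17.5% and 15.3% at 24 h, which an exact permutation test did not separate (two-sided p = 0.2). The 500 most abundant took 29.9%, 29.8% and 30.7% at 12 h and 34.2%, 35.2% and 31.5% at 24 h, without overlap (exact permutation test, two-sided p = 0.1). With 3 libraries against 3 the smallest p such a test allows is 0.1, so none of these measures could pass 0.05.

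Between 12 h and 24 h, 886 features rose and 1354 fell, which is 1.96% and 2.99% of the 45222 features tested and 4.95% together. A feature is called, here and below, at an adjusted p under 0.05 by edgeR's quasi-likelihood F-test with Benjamini-Hochberg adjustment over all features tested, and a log2 change of 1 or more in size. The median log2 change was 1.73 among rises, with quartiles of 1.30 and 2.41, and -1.67 among falls, with quartiles of -2.28 and -1.30. Over all tested features the median was -0.06. Changes of at least 2 on the log2 scale made up 328 rises and 466 falls, and changes of at least 5 made up 36 and 54. Of the rises 21 had no counts at 12 h, and of the falls 49 had none at 24 h, and with these set to a floor of 3 counts over the group the medians were again 1.73 and -1.67. Complete switches at substantial level were rare. A single feature was under 1 CPM in every 12 h library and at 10 CPM or more in every 24 h library, and 2 features showed the opposite pattern.

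**Figure D1:**
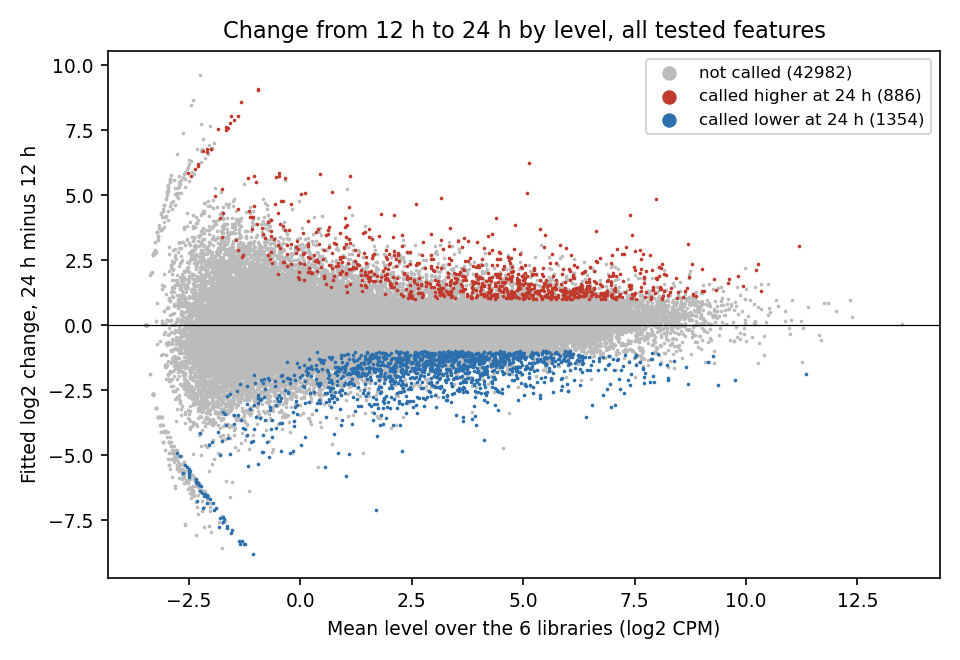
Each point is 1 of the 45222 tested features, with its mean level over the 6 libraries in log2 CPM on the x axis and its fitted log2 change (24 h minus 12 h) on the y axis. The 886 features called higher (red) and 1354 called lower (blue) spread over all levels, and the arms at low levels on the left are features with few counts, whose fitted changes are large and imprecise.

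Falls outnumbered rises under every alternative that was run, but by how much depended on the processing and on the libraries fitted. With DESeq2 size factors in place of TMM in the same edgeR fit, there were 988 rises and 1175 falls. A further alternative, limma on log2(FPKM + 0.1), changes the unit, the test, the scaling and the features tested together, and gave 737 rises and 2537 falls. A fit of the 6 libraries alone gave 1281 rises and 1310 falls. The median change over all features tested was -0.28 with log2(FPKM + 0.1) and -0.19 with log2(FPKM + 1), against -0.06 with TMM-scaled counts. The number of calls also rested on single libraries. Leaving out 12 h replicates 1, 2 and 3 in turn gave 1305, 1259 and 609 calls. Leaving out 24 h replicates 1 and 2 gave 874 and 1189. Without 24 h replicate 3, the library nearest to 12 h, 962 features rose and 1580 fell. No feature called both with the reported settings and in an alternative changed direction in any of the alternatives. These fits reuse 12 h and 24 h libraries that chose the features. A change of direction was hardly possible, so nothing is read from its absence.

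Within the called features the 6 libraries divided by time almost without exception. The 3 libraries of each time lay apart, without overlap, for 878 of the 886 rises and 1349 of the 1354 falls. Over all tested features the 24 h libraries lay wholly above those of 12 h in 14.8% and wholly below in 16.5%, and since the called features were chosen on this contrast nothing is read from their count. The median difference from the 12 h mean over the called rises was 1.73, 1.85 and 1.45 on the log2 CPM scale in 24 h replicates 1, 2 and 3. Over the called falls it was -1.70, -1.61 and -1.63. Replicate 3 at 24 h thus showed the smallest difference among the rises but not among the falls.

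How the calls were spread over levels depended on which libraries set the level. Sorted by mean CPM in the 9 libraries of 0 h, 2 h and 6 h, which was tried after seeing the data, 69 features at 100 CPM or more (3.88%) rose and 80 (4.50%) fell. From 10 to 100 CPM 377 (2.96%) rose and 743 (5.83%) fell, and from 1 to 10 CPM 268 (1.67%) rose and 462 (2.88%) fell. Under 1 CPM 172 (1.17%) rose and 69 (0.471%) fell. Sorted by the 12 libraries of all other times, 48 h included, the class of 100 CPM or more held 145 rises (7.16%) and 67 falls (3.31%), and the class under 1 CPM 69 rises (0.484%) and 92 falls (0.645%). The prevailing direction in the highest and the lowest class thus reversed between the sortings, while falls prevailed from 1 to 100 CPM in both. Neither sorting was free of the courses of the called features. The median of the rises was 5.39 log2 CPM at 48 h against 3.26 at 0 h. That of the falls was 4.16 log2 CPM at 6 h against 3.38 at 0 h. The part of these courses in the reversal was not tested. By length, the share called went from 0.396% higher and 0.760% lower under 500 nucleotides to 3.90% higher and 4.26% lower at 2000 nucleotides or more. In that longest class rises and falls were near balance, at 487 and 531, while from 1000 to under 2000 nucleotides 240 rose and 522 fell. The median length was 2227 nucleotides for rises and 1666 for falls, against 1009 for all tested features. CPM is not a level per length, so longer features hold more counts at the same number of molecules, and the part of depth in these length shares was not tested.

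The called features made up several percent of the leaf's counted RNA. The 886 rises held 3.35%, 3.42% and 2.79% of counts in 12 h replicates 1, 2 and 3, and 9.45%, 9.19% and 8.96% in those of 24 h. The 1354 falls held 5.60%, 5.77% and 7.48% at 12 h and 1.59%, 1.77% and 1.65% at 24 h. These 6 libraries chose the features, so those shares are a description. In the libraries that did not choose them, the rises held 3.44% ± 0.270 (SD, n = 3) at 0 h, then 3.57% ± 0.187 at 2 h, then 2.57% ± 0.567 at 6 h and, later, 12.3% ± 0.200 at 48 h. For the falls the same shares were 4.71% ± 0.853 at 0 h, then 4.02% ± 0.708 at 2 h, then 7.40% ± 2.33 at 6 h and, later, 1.07% ± 0.0700 at 48 h. At 48 h all 3 libraries lay outside the range of the 0 h, 2 h and 6 h libraries, above it for the rises and below it for the falls. The 10 most counted rises held 22.5% of the set's counts at 24 h, and the 100 most counted held 63.0%. For the falls at 12 h these were 23.3% and 57.5%. Most of each set's counts thus lay in its 100 most counted features, though not in 10 alone.

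**Figure D2:**
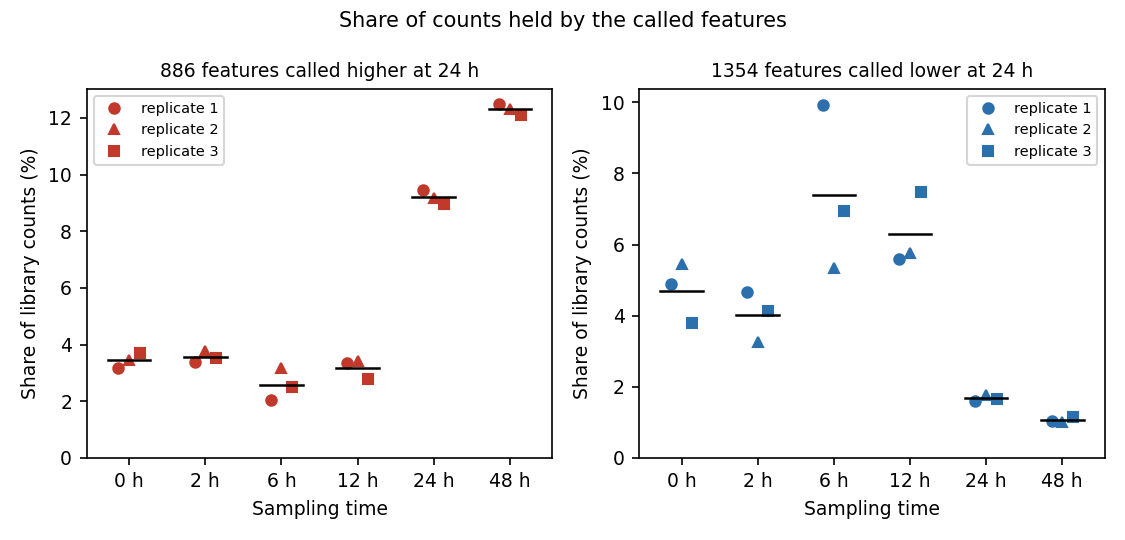
The y axis gives the share of a library's counts (%) held by the features called higher (left) or lower (right) at 24 h than at 12 h, and the x axis the sampling time, with 1 point per library and a bar at the mean of 3. The rises go from 2.79% to 3.42% at 12 h to 8.96% to 9.45% at 24 h and 12.1% to 12.5% at 48 h, and the falls from 5.60% to 7.48% to 1.59% to 1.77% and then 1.02% to 1.15%.

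Of the 100 features with the highest mean CPM at 12 h, 66 were also among the 100 highest at 24 h. From 6 h to 12 h the number kept was 73, and from 24 h to 48 h it was 70, differences that were not tested. Among the 100 highest at 24 h, 17 were called rises and 1 a fall, and among the 100 highest at 12 h, 2 were called rises and 9 falls, where 1.96% and 2.99% of all tested features rose and fell. These rankings use the libraries that made the calls, so nothing is read from them. At 48 h, whose libraries did not enter the contrast, 26 of the 100 highest were rises of this step and none was a fall, while at 6 h 1 was a rise and 10 were falls.

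Libraries outside the step showed the same division between early and late times. The contrast of 48 h with 6 h shares no library with that of 24 h with 12 h, although all libraries share 1 estimate of the spread. This contrast too compares unlike hours of day if the stated hours were kept. It called 757 of the 886 rises (85.4%) higher at 48 h and 5 lower, where 11.0% of all tested features were called higher. Of the 1354 falls, 1165 (86.0%) were called lower at 48 h than at 6 h and 1 was called higher, where 14.5% of all tested features were called lower. Shares over all tested features, here and below, include many features of low counts. Shares among features of like level were not tallied. The median log2 change from 6 h to 48 h was 2.24 over the rises and -2.36 over the falls, against -0.07 over all tested features. Under the 31 settings that were run, the main one included, the share of rises called higher ran from 62.0% with limma on log2(FPKM + 1) to 91.8% without 24 h replicate 1. The share of falls called lower ran from 74.5% without 24 h replicate 3 to 91.3% at 10 CPM or more in 3 libraries. The counts themselves followed the number of calls in the step and moved by over 1.5 times without any of 12 h replicates 1, 2 and 3 or 24 h replicates 1 and 2, down to 189 rises and 361 falls without 12 h replicate 3. The counts against 0 h given next moved without the same libraries, down to 150 and 264.

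Set against the start of the course, the called features fell into unlike courses. The contrast of 48 h with 0 h also uses none of the 6 libraries. It called 690 of the rises (77.9%) higher and 15 lower, against 16.3% of all tested features higher, and 846 of the falls (62.5%) lower and 56 higher, against 15.7% of all tested features lower. It left 181 rises (20.4%) and 452 falls (33.4%) uncalled, which does not show that these stood at equal levels at 0 h and 48 h. The median level of each class at the 6 times tells the courses apart, and only the values at 2 h and 6 h are free of both choices. If the stated hours were kept, 0 h, 24 h and 48 h share an hour of day, which 2 h, 6 h and 12 h do not. Time in salt and hour of day thus cannot be told apart in these courses either.

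The 690 rises that were higher at 48 h than at 0 h had medians between 2.92 and 3.52 log2 CPM up to 12 h. From a median of 2.94 log2 CPM at 0 h they passed through 3.40 at 2 h, then 2.92 at 6 h, to 3.52 at 12 h. At 24 h they stood at 5.30 and at 48 h they reached 5.62. The 181 uncalled rises traced a trough instead. Their median went from 4.32 log2 CPM at 0 h through 3.90 at 2 h and 3.25 at 6 h to 2.99 at 12 h, and stood at 4.65 at 24 h and 4.72 at 48 h. Of these 181 features, 28 (15.5%) were called lower at 6 h than at 2 h and none higher, where 0.597% of all tested features were called lower. Among the 690 it was 27 (3.91%), and 57 among all 886 rises.

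Falls divided in a mirrored way. The 846 that were lower at 48 h than at 0 h held a median of 3.86 log2 CPM at 0 h, then 3.59 at 2 h, then 4.21 at 6 h, before 3.76 at 12 h gave way to 2.15 at 24 h and lastly 1.61 at 48 h. By contrast, the 452 uncalled falls formed a hump: 2.45 log2 CPM at 0 h, then 2.75 at 2 h, up to 3.96 at 6 h with 3.88 at 12 h, and down to 2.01 at 24 h with 2.15 at 48 h. A smaller class of 56 climbed from a median of 1.26 log2 CPM at 0 h to 5.06 at 6 h and 5.26 at 12 h, and came back only to 3.21 at 24 h and 3.32 at 48 h.

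The 6 h and 2 h libraries, which entered neither choice, gave the ascent of these humps a test. Of all 1354 falls, 269 (19.9%) were called higher at 6 h than at 2 h and 3 were called lower, where 1.77% of all tested features were called higher. The number was 134 of the 452 (29.6%), 33 of the 56 (58.9%) and 102 of the 846 (12.1%). The median log2 change from 2 h to 6 h over the 1354 falls was 0.83, against -0.06 over all tested features. This count was less steady than those at 48 h. It was 21, or 1.6% of the falls of that fit, with only the libraries of the times compared. Leaving out 2 h replicates 1, 2 and 3 gave 104, 147 and 65 (8.9%, 10.1% and 6.1%). Leaving out 6 h replicates 1 and 3 gave 87 and 166 (5.7% and 14.9%). On leaving out 12 h replicates 2 and 3 and 24 h replicate 1 it was 160, 89 and 96. There the share of the falls stayed at 19.7%, 22.3% and 18.5%. The share over all tested features was not tallied for these fits. A loss among the falls thus cannot be told from fewer calls over all features. The 57 rises called lower at 6 h moved likewise, to 27 and 17 without 2 h replicates 1 and 3, 18 and 25 without 6 h replicates 1 and 3, and 25 on leaving out any of 12 h replicates 2 and 3 and 24 h replicate 1. They numbered 33 without 48 h replicate 2 and 7 with only the libraries of the times compared.

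**Figure D3:**
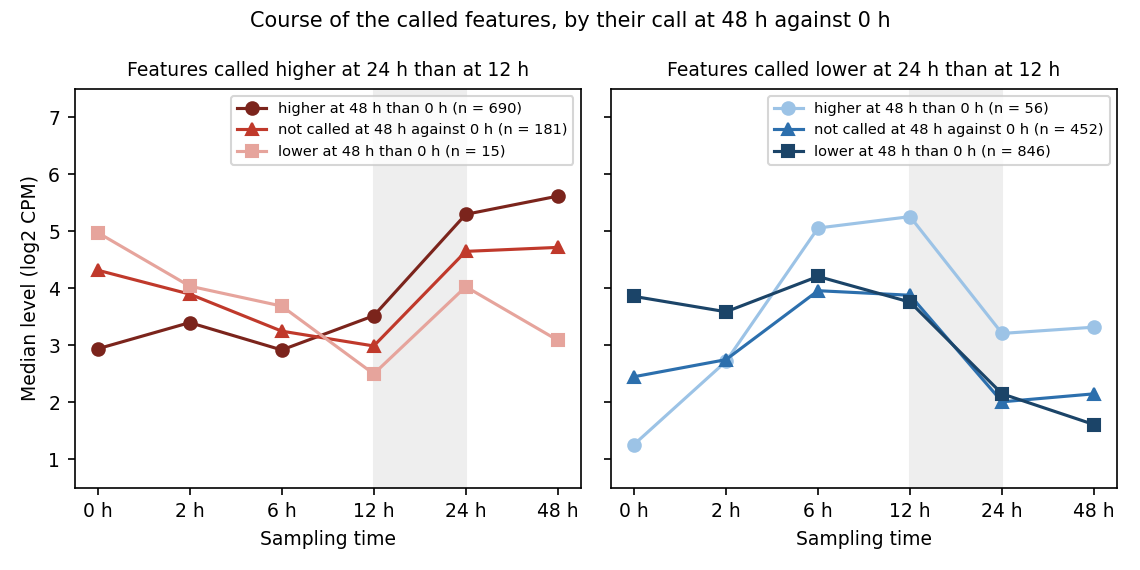
Lines give the median level (log2 CPM) at each sampling time of the features called higher (left) or lower (right) at 24 h than at 12 h, divided by their call at 48 h against 0 h, with the interval from 12 h to 24 h shaded. The 690 lasting rises lie between 2.92 and 3.52 up to 12 h, and the 181 uncalled rises pass through 2.99 at 12 h. The 452 uncalled falls reach 3.96 at 6 h before returning to 2.01 at 24 h.

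Whether a feature's signed change in this step differed from that in the next or the previous step was asked by a test of the difference itself. A turn of direction thus counts as a difference, even where both changes were of equal size. The change from 12 h to 24 h minus that from 24 h to 48 h passed the call rule in 2 features by edgeR (0.00442% of those tested), and in 386 by the DESeq2 test. The change from 12 h to 24 h minus that from 6 h to 12 h passed in 0 features by edgeR (0.0%), and in 390 by the DESeq2 test. At an unadjusted p under 0.05 these differences numbered 4228 (9.35%) and 3564 (7.88%) by edgeR. A p that misses the threshold does not show that the steps were alike. Leaving out single libraries gave 0 to 11 and 0 to 43 such features by edgeR, both highest without 0 h replicate 2, and the first also without 6 h replicate 1. The 2 features against the next step were not a steady count, since 10 of these 18 fits gave none. The steps share libraries and cover 6, 12 and 24 h.

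TRINITY_DN16846_c1_g1_i10_7, of 4966 nucleotides, had the largest fitted rise among the 597 called features with at least 10 CPM in each 24 h library and no overlap with 12 h. It stood at 6.24, 4.04 and 2.30 CPM in the 12 h libraries and at 259.0, 364.6 and 318.8 CPM in those of 24 h. Every 24 h library was thus far above every 12 h library, and the mean was 74.9 times higher. The log2 change was 6.23 (SE 0.76, adjusted p = 0.0012, edgeR). Before 12 h it was close to 0, with 0.792 CPM in 6 h replicate 2 and at most 0.0429 CPM in the other early libraries, and at 48 h it reached 611.8, 494.6 and 341.0 CPM. Its step was not shown to differ from the next one (adjusted p = 0.11, edgeR) nor from the one before (adjusted p = 0.71).

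TRINITY_DN15119_c0_g1_i1_7, of 2698 nucleotides, had the largest gain in mean CPM among the same 597 features. In the 12 h libraries it had 847.2, 771.5 and 874.8 CPM and in the 24 h libraries 8256, 7340 and 4931 CPM, without overlap and lowest in 24 h replicate 3. By mean CPM it moved from rank 62 at 12 h to rank 3 at 24 h, and it made up 6.54% of the counts of all rises at 24 h. The log2 change was 3.04 (SE 0.47, adjusted p = 0.0033, edgeR). Earlier levels were 516.3 CPM ± 313.2 (SD, n = 3) at 0 h, 348.0 ± 202.0 at 2 h and then 357.9 ± 83.4 at 6 h, before it reached a 48 h mean of 12592 ± 2563. It was also called higher at 48 h than at 6 h, with a log2 change of 5.14 (SE 0.52, adjusted p = 8.4e-06, edgeR).

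TRINITY_DN16367_c0_g1_i7_8, of 1710 nucleotides, had the largest fitted fall among the 741 features that met the matching rule. It had 46.5, 63.3 and 45.3 CPM in the 12 h libraries, no counts in 24 h replicates 1 and 2, and 0.994 CPM in 24 h replicate 3. The groups did not overlap, and the log2 change was -7.09 (SE 0.79, adjusted p = 0.0012, edgeR). All of its 24 counts at 24 h came from replicate 3, without which the fitted change was -13.16, a value set by the prior count of the fit. From 2 h to 12 h it had stood at 62.4 CPM ± 15.1 (SD, n = 3), 56.8 ± 4.74 and 51.7 ± 10.1, and at 48 h it had no counts in any library.

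TRINITY_DN14476_c0_g2_i2_4, of 979 nucleotides, had the largest loss in mean CPM among the same 741 features. It had 3952, 4990 and 6770 CPM at 12 h and 1291, 2147 and 851.2 CPM at 24 h, without overlap. Its rank by mean CPM went from 2 to 45, and its log2 change was -1.87 (SE 0.49, adjusted p = 0.034, edgeR). This call was lost without any of 12 h replicates 1, 2 and 3 or 24 h replicates 1 and 3, with adjusted p from 0.051 to 0.13. Earlier libraries were widely spread, at 4738 CPM ± 1943 (SD, n = 3) at 0 h, 2847 ± 1707 at 2 h and then 5619 ± 2185 at 6 h, while 48 h stood at 570.1 ± 42.5. It was called lower at 48 h than at 6 h, with a log2 change of -3.30 (SE 0.52, adjusted p = 0.00019, edgeR).

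**Figure D4:**
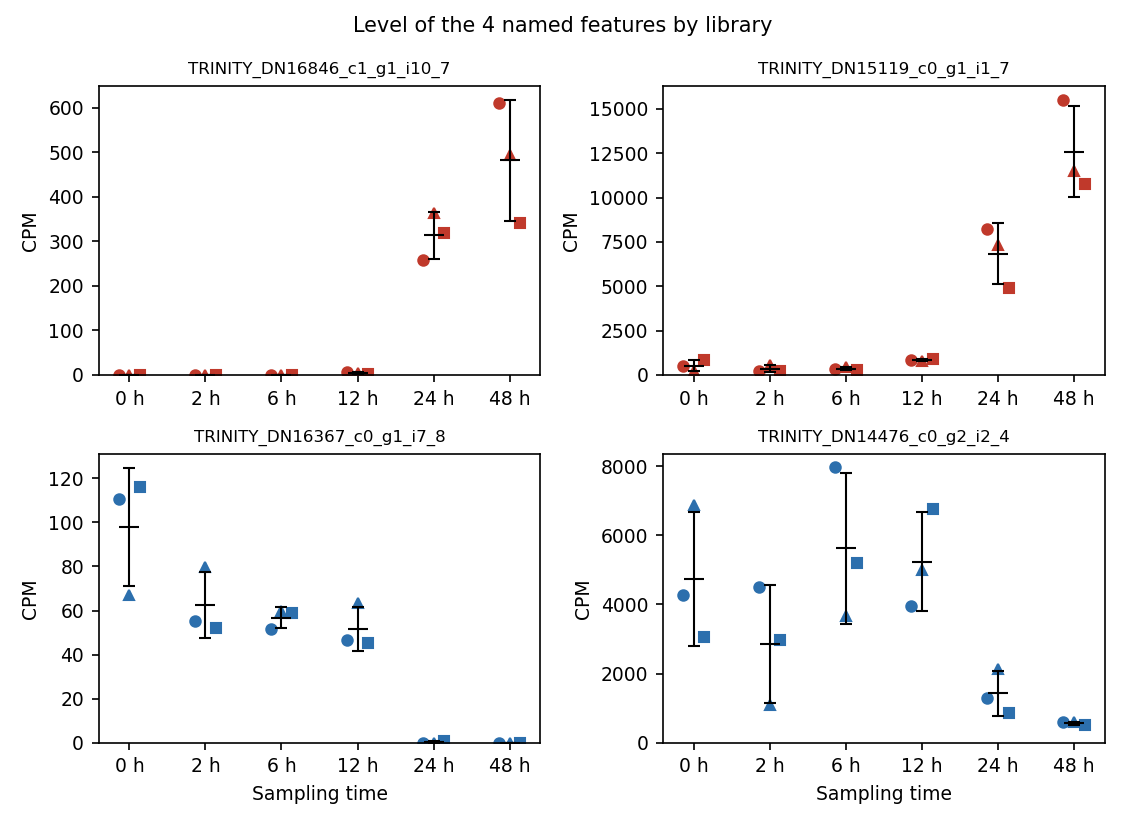
Each panel gives the level (CPM) of 1 of the 4 named features in every library by sampling time, with circles, triangles and squares for replicates 1, 2 and 3, a black mark at the mean and bars of 1 SD (n = 3). The 2 upper features rise from at most 6.24 and 874.8 CPM at 12 h to 259.0 CPM or more and 4931 CPM or more at 24 h, and the 2 lower features drop to under 1 CPM and to 2147 CPM or less.

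The direction of a feature in this step went with the last digit of its ID, a number from 1 to 9 whose meaning the files do not give. Whether 1 transcript appears under several digits was not tested, so counts of features here are not counts of distinct transcripts. Features with each digit were highest in certain libraries more often than features in general. For digit 4 the largest excess was in 12 h replicates 2 and 1, where such features peaked 3.87 and 3.52 times as often as features in general. For digit 5 it was 24 h replicate 1 and 12 h replicate 3, for digit 6 24 h replicates 2 and 3, and for digit 7 48 h replicates 2 and 1. Among features ending in 6, 215 (4.04%) rose and 29 (0.546%) fell, and among those ending in 7, 269 (5.72%) rose and 37 (0.787%) fell. Falls prevailed at digit 2, whose excess was in 6 h replicates 1 and 2, with 28 rises (0.504%) and 390 falls (7.02%). At digit 4 there were 41 rises (0.991%) and 181 falls (4.38%). These digit classes were picked with the values in view, they use the same libraries as the contrast, and their part in the result was not tested. With the features ending in 4, 5 or 6 left out of the fit, which was tried only once the digits had been examined, there were 614 rises and 803 falls. In that fit 48 h was called above 6 h in 86.8% of the rises, and below it in 87.4% of the falls. Digits 2 and 7, with their excess in 6 h and 48 h libraries, stayed in the fit. These shares therefore cannot show a result free of the digits, and the share over all features of that fit was not tallied.

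**Figure D5:**
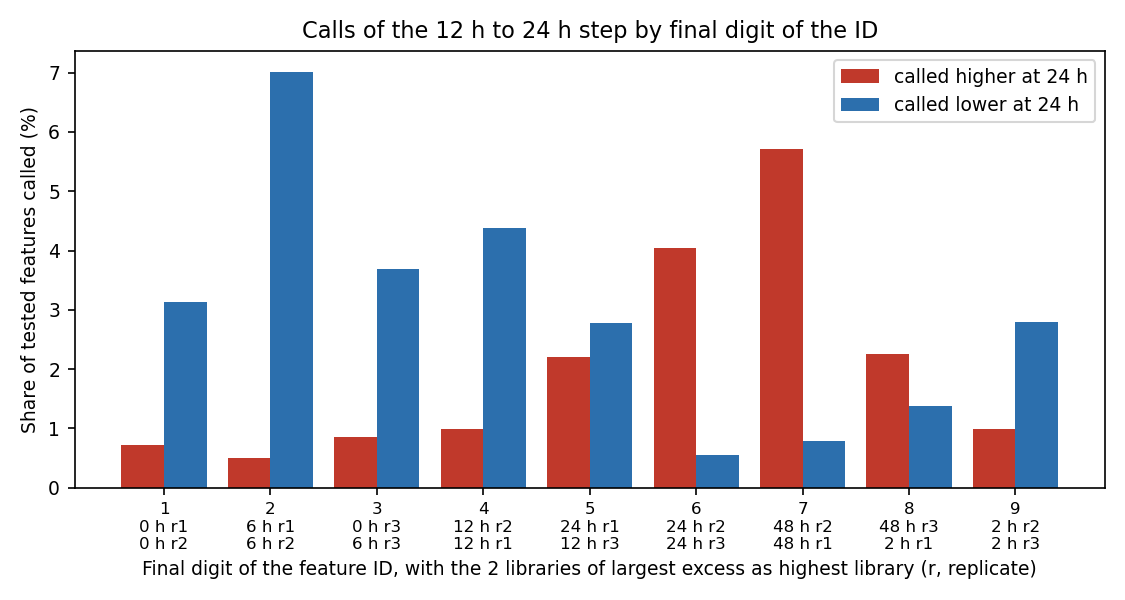
Bars give the share of tested features (%) called higher (red) or lower (blue) at 24 h than at 12 h for each final digit of the feature ID, with the 2 libraries of largest excess under each digit. Rises are most frequent at digits 7 (5.72%) and 6 (4.04%), which go with 48 h and 24 h libraries, and falls at digit 2 (7.02%), which goes with 6 h libraries.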

How the data were processed

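The authors deposited estimated counts per feature, unscaled between libraries, and FPKM values of the same features. The features are Trinity transcripts, per the file headers and IDs. How reads were aligned and counted is not given in the sources used here. Of the counts 89.6% were not whole numbers, and they were rounded first. No value column was left unused as another sample's (0). Feature length was count over FPKM, scaled so that lengths were whole nucleotides (within 0.1 for 99.99% of features). No sequences, genome or gene names were used. Reads shared by near-identical features may be split between them.

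filterByExpr left 45222 features. TMM scaling and 1 quasi-likelihood model of the 6 times over all 18 libraries used edgeR 4.0.16 (R 4.3.3), with a common dispersion of 0.24. SE is the log2 change over the square root of F. Log2 CPM had a prior count of 2. Replicate pairs of the 2 times differed beyond sampling noise (chi-square per degree of freedom 27.6 or more). The fit was tested on simulated counts. Alternatives were DESeq2 1.42.0 (size factors or test), limma 3.58.1 on log2 FPKM, filters, fold thresholds, a replicate block, fewer libraries and each library left out. Tables used Python 3.11.15, pandas 2.3.3 and scipy 1.17.1. Named features had to be called, to reach 10 CPM in all 3 libraries of the higher time and to show no overlap; of these, the text names the largest log2 change and the largest difference in mean CPM in each direction. The comparison, lists, rules and tests were chosen with earlier results of these data known. The contrast of 6 h with 2 h was added after seeing the data.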

Additional observations from a re-analysis of the deposited data

Results flagged for a closer look

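A test of the difference between neighbouring steps passed the call rule in 2 features, whose change from 12 h to 24 h differed from their change from 24 h to 48 h. Both were described only after their values were seen. The first, of 3448 nucleotides, stood at 52.5, 53.4 and 76.8 CPM at 12 h, 6.27, 9.43 and 5.88 CPM at 24 h and 9.15, 13.1 and 13.1 CPM at 48 h. The difference between its steps was -3.80 on the log2 scale (adjusted p = 0.032, edgeR). The second, of 1198 nucleotides, had 18.4, 17.9 and 23.9 CPM at 12 h, 1.67, 2.13 and 3.15 CPM at 24 h and 3.44, 4.64 and 3.98 CPM at 48 h, a difference of -3.89 (adjusted p = 0.032, edgeR). Both had means of 8.76 and 7.32 CPM at 0 h and of 64.8 and 30.6 CPM at 6 h. Of the 18 fits that left out 1 library each, 10 found no such feature. Neither was tested in libraries outside these times.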

How the results depend on the processing

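Of 346 alternative values of the counts and library measures, 222 stayed within 1.5 times the reported count (for library measures, kept their direction). The other 124 moved further. Only library measures could reverse, since a count has no direction, and none of them did. Of 119 alternative log2 changes of the 4 named features, 113 kept direction and call and 6 lost the call, all for TRINITY_DN14476_c0_g2_i2_4. Values that moved follow. Some settings used fewer features or libraries, and the cause of a move was not tested in any setting. The DESeq2 test called 4074 features in the step (1864 rises, 2210 falls), of which 1464 rises and 1773 falls were shared with 48 h against 6 h and 1377 and 1315 with 48 h against 0 h. It found 386 and 390 features whose step differed from the next and the previous one, and 169 rises and 620 falls that turned (called lower and higher, respectively, at 6 h than at 2 h). At a log2 change of 2 or more, 794 were called (328 and 466), with 254 and 348 shared with 48 h against 6 h, 250 and 206 with 48 h against 0 h, and 12 and 85 that turned. With 10 CPM in 3 libraries, 42 steps differed from the next and 18 from the previous, and 95 rises turned. With only the libraries compared these numbers were 10, 24 and 7, with 21 falls that turned. Without replicate 2 of both 0 h and 2 h, 1347 features rose, 10 and 141 steps differed, and 114 rises turned. Limma on log2(FPKM + 1) gave 2294 falls, 1887 shared with 48 h against 6 h and 1293 with 48 h against 0 h, and 151 and 38 steps that differed. On log2(FPKM + 0.1) these were 2537, 2201, 1786, 43 and 5, with 33 rises that turned. Leaving out IDs ending in 4, 5 or 6, which removes features, gave 1417 calls, 803 falls, 702 and 503 falls shared, 176 falls that turned and 5 steps that differed from the previous.

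With the replicate block, 1870 features were called (719 rises, 1151 falls), 0 steps differed from the next, and 33 rises and 171 falls turned; it changed no other count by over 1.5 times. Deviations of same-numbered 12 h and 24 h libraries correlated at 0.04 to 0.16, so the numbers were not taken to pair them, although 6 of 6 libraries correlated best with their own number. Leaving out each of the 18 libraries gave 609 to 2581 calls (210 to 1058 rises, 399 to 1580 falls). Shared calls were 189 to 884 rises and 361 to 1300 falls with 48 h against 6 h, and 150 to 805 and 264 to 942 with 48 h against 0 h. Steps differed in 0 to 11 features (next) and 0 to 43 (previous), and 17 to 85 rises and 65 to 374 falls turned. The share of the 100 most counted features differed by 1.15 to 2.25 percentage points, and features at 1 CPM by -2996 to -688.3. Summing counts per assembly identifier was not run, because each of the 53545 identifiers held 1 feature.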
